A study of Mus musculus with 3 samples.

Results

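Natural killer (NK) cells are described here from a CITE-seq capture of immune cells taken from metastasis-bearing mouse brains. CITE-seq counts the transcripts of a cell and oligonucleotide-tagged antibodies bound to its surface in 1 droplet. NK cells were chosen by transcripts alone. A barcode was a member when it held at least 500 genes, at most 15% mitochondrial UMIs (unique molecules) and at most 20000 gene UMIs, when its top hashtag took at least 70% of its mouse hashtag counts, when at least 3 of the 6 genes Ncr1, Klre1, Klra4, Klrb1c, Txk and Xcl1 had a UMI, and when Cd3d and Cd3e, which encode chains of the T cell receptor complex, had none. The rule found 492 NK cells among the 4871 barcodes that passed the quality and hashtag limits, out of 12908 barcodes in all.

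The mice were C57Bl/6 females, 2 to 3 months old, and carried brain metastases that grew from carotid injection of E0771 cells, a mammary carcinoma line of the same species. Every other day from day 3, some were given anti-VISTA together with anti-PD-L1, antibodies against proteins that restrain immune responses, and others were not. Brains were perfused with PBS and dissociated, and immune cells were enriched on a Percoll gradient. The 8 brain samples were stained with 35 antibodies, marked with 1 hashtag antibody each and pooled. The sources used here do not tie a hashtag to a treatment, so the hashtag samples mix treated and untreated brains and treatment was not compared. All NK cells therefore share the strain, the sex, the tumour line and the brain as their source, and every comparison below sets cells against other cells of the same hashtag samples.

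NK cells are innate lymphocytes that kill stressed, infected or transformed cells without a rearranged antigen receptor. Their response is set by the balance of activating receptors, which signal through adaptor proteins, and of inhibitory receptors that recognise MHC class I, among them the Ly49 (Klra) family in mice. They kill by releasing perforin and granzymes, and they secrete interferon gamma and chemokines that draw in other immune cells. In mice, NK cells mature from CD27-positive, CD11b-negative cells to CD11b-positive, CD27-negative cells, and they are few in the healthy brain.

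The rule genes encode NK receptors (Ncr1, Klre1, Klra4 and Klrb1c), a Tec family kinase (Txk) and the dendritic cell attractant Xcl1. They were found in these shares of the members: Txk in 92.3%, Klre1 in 92.7%, Klrb1c in 86.6%, Ncr1 in 77.4%, Xcl1 in 67.7% and Klra4 in 55.3%. All 6 were seen in 93 members, 5 in 213, 4 in 141 and 3 in 45. Just inside the limit, the cells with 3 rule genes had a median of 51 NK1.1 tags and 6 CD3 tags, and the 14 cells just outside it, with 2 rule genes, had 62.5 NK1.1 and 7.5 CD3 tags. The 131 cells with 1 rule gene had 16 NK1.1 tags. The Cd3 limit left out 121 cells with at least 3 rule genes. These values chose the members or lie beside the choice and were not tested.

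The label was checked against marker lists. All 12 NK markers were detected, including Eomes, Klrk1, Klrd1, Prf1, Gzma, Itga2 and Fcer1g, which the rule did not use. Of the T cell markers, Cd8a, Cd8b1, Cd5, Cd6 and Themis had no UMI in any member, and the summed level of the 12 markers had a median of 930.3 CPM (737 to 988) in NK cells, against 7089 CPM in CD8 T cells of the same brains. Trbc1, an unrearranged T cell receptor constant gene that NK cells can transcribe, made up 507 CPM of the NK sum, and 64 members held a UMI of Cd3g or Trac. The markers Cd79a, Ms4a1 and Pax5 of B cells, Il5, Il13, Il17a and Il22 of other innate lymphoid cells, Ly6g of neutrophils, Xcr1 and Clec9a of dendritic cells, Cpa3, Ms4a2 and Fcer1a of mast cells and basophils, and Krt7, Krt19, Cldn4 and Cldn7 of epithelial cells were at 0. Other members of these lists had UMIs. The 10 markers of other innate lymphoid cells summed to 54.5 CPM in NK cells, against 114 CPM in CD8 T cells. The 6 mast cell and basophil markers, Kit among them, summed to 45.3 CPM, against 2.79 CPM. The 8 carcinoma or epithelial markers summed to 42.9 CPM, against 32.9 CPM. The 8 dendritic cell markers summed to 1181 CPM, of which Irf8, also an NK gene, had a median of 1145 CPM. The 7 B cell markers summed to 80.6 CPM, against 64.7 CPM in CD8 T cells. The 8 endothelial markers summed to 142 CPM (63.5 to 581, highest in sample 2), against 17596 CPM in an endothelial gate. The 8 microglia markers summed to 60.8 CPM (49.9 to 258) and the 7 neutrophil markers to 11.9 CPM (5.19 to 131), both highest in sample 7, and no endothelial or microglia marker was at 0. The NK markers were thus present and the T cell markers mostly low or at 0, with lower signals of other cell types beside them. The 12 monocyte and macrophage markers summed to a median of 437 CPM (156 to 1407) in NK cells, against 22192 CPM in a macrophage gate, and none of the 12 was at 0. In 373 members, called clean cells below, the sum of these 12 markers was 127 CPM (109 to 230). Clean cells had no UMI of C1qa, Csf1r, Ms4a7, Krt8, Krt18 or Cd79a, and few or none of Lyz2. Some of these genes are in the sum, so a lower sum follows in part from the choice.

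NK cells held 2629810 UMIs in all, 12836 to 841875 per hashtag sample, with a median of 4310 UMIs, 1680.5 genes and 1540.5 antibody tags per cell. Counts are given as CPM, counts scaled to the summed UMIs of the NK cells of a sample, so fewer cells with a transcript and less transcript per cell cannot be told apart. UMIs count the 3' ends of transcripts and do not grow with gene length, so levels of different genes are set side by side. Levels are given for the 6 hashtag samples (2, 3, 5, 6, 7 and 8) with at least 20 NK cells, as lowest, median and highest. The 3 deposited libraries (transcripts, antibody tags and hashtags) come from the same 12908 barcodes, and the NK gate shared 0 barcodes with the CD8 T cell, endothelial and macrophage gates. The labels do not say that each hashtag is a separate animal, and p-values therefore speak only of the spread among hashtag samples, which may be technical.

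The surface readout depends on 15-base barcodes that identify each antibody. The barcodes of the 6 antibodies that bear most on NK identity and maturation are printed here in lower case, with no part in capitals.
NK1.1: gtaacattactcgtc
CD11b: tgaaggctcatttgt
PD-1: gaaagtcaaagcact
CD335: ccctttcacctcgaa
KLRG1: gtagtaggctagacc
CXCR4: gtcgtggtgttgttc
The first set, NK1.1, CD11b and PD-1, gave counts in NK cells that are described below. The other set gave none: the tags for CD335 (the product of Ncr1), KLRG1 and CXCR4 had 0 counts in all 492 NK cells, and 8, 3 and 2 counts over all 12908 barcodes. Ncr1 and Klrg1 are therefore described by transcripts alone.

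NK cells made up a median of 8.69% of the cells that passed the limits in a hashtag sample, and the share ranged from 4.12 to 12.8%. Samples 1 to 8 held 2 of 35, 47 of 381, 26 of 382, 7 of 119, 169 of 1423, 27 of 655, 91 of 712 and 123 of 1164 cells. The shares were 5.71, 12.3, 6.81, 5.88, 11.9, 4.12, 12.8 and 10.6%. Sample 6 was lowest, and its 95% Clopper-Pearson interval (2.73 to 5.94%) did not reach those of samples 2, 5, 7 and 8, which reached from 8.86 to 16.1%. The intervals cover counting error only. The interval of sample 1 ran from 0.70 to 19.2%, too wide to place it. The upper UMI limit bears on the denominator: without it the median share was 3.91%. Shares were measured after density gradient enrichment, and no test was run on them.

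**Figure D1:**
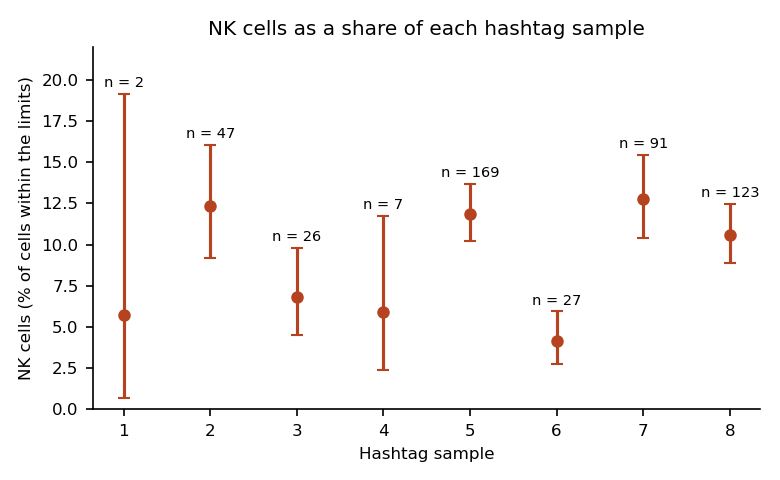
NK cells as a percent of all cells passing the limits (y axis) in hashtag samples 1 to 8 (x axis), with 95% exact binomial intervals and the number of NK cells above each point. Samples 2, 5, 7 and 8 lie between 10.6 and 12.8%, and sample 6 is lowest at 4.12%.

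Receptor and adaptor genes described the identity of these cells. The signalling adaptors Fcer1g and Tyrobp, which couple receptors such as CD16 and Ly49 activators to kinases, had lowest, median and highest levels of 2103, 2939 and 3925 CPM for Fcer1g and 1922, 2625 and 2737 CPM for Tyrobp. Klrd1, which encodes the CD94 chain, stood at 826, 1013 and 1207 CPM. All 19 receptor and adaptor genes of the list found in the file had a UMI in each of the 6 samples. Of 10 Ly49 genes, 8 had a median of at least 10 CPM. The order of the Ly49 medians was Klra4 (568), Klra7 (416), Klra8 (382), Klra9 (275), Klra3 (169) and Klra1 (151 CPM), and Klra17 had no UMI. Klra7 (203 to 566 CPM) overlapped Klra4 (436 to 824), Klra8 (244 to 508) and Klra9 (223 to 349), and Klra3 (145 to 263) overlapped Klra9 and Klra1 (95.4 to 226), so neighbours in this order did not differ beyond their spread. The 20 Klr genes of the lists that were matched all lie in the NK gene complex on chromosome 6, between positions 122270596 and 130386874 of GRCm38.p6, and their sequences are alike enough to share reads. How reads were split between them is not stated in the sources used here, so single Ly49 values are uncertain.

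NK cells were compared with CD8 T cells, the other cytotoxic lymphocyte of these brains, to show which effector, checkpoint and migration genes set them apart. NK cells held more granzyme A, perforin and granzyme C transcript and less of the checkpoint genes Pdcd1, Havcr2, Lag3 and Ctla4, of Cxcr6 and of the cytokine gene Ltb, and each of these differences also passed in the clean cells described above. Tnf and Il10 were lower too, and both were too scarce to be tested in clean cells. CD8 T cells passed the same limits, had a UMI of Cd3d or Cd3e and of Cd8a or Cd8b1, none of Cd4 and at most 1 rule gene. The last limit leaves out CD8 T cells that transcribe more of the rule genes, so the comparison does not cover all CD8 T cells. Among all cells with Cd3d or Cd3e, 146 had 2 rule genes and 121 had at least 3. How many of these were CD8 T cells was not counted. Samples 5, 6, 7 and 8 held at least 20 of both, with 169, 27, 91 and 123 NK cells and 92, 89, 47 and 100 CD8 T cells. Counts were summed per sample and gate and tested with edgeR's quasi-likelihood test, blocked by hashtag sample, and p-values were adjusted over 6586 genes by the Benjamini-Hochberg method. Fold changes are NK over CD8 on the log2 scale ± SE (n = 4 samples), and genes used by either gate have no test. Over all genes tested 815 passed (12.4%), of which 359 were higher (5.45%) and 456 lower (6.92%) in NK cells, and the median log2 fold change was 0.02. The groups did not overlap for 17.5% of genes. The macrophage marker sum was 437 CPM in NK cells and 2199 CPM (1531 to 3771) in CD8 T cells, and all 11 macrophage markers tested were lower in NK cells. Between clean cells of both gates 3 macrophage markers could be tested, and edgeR called 0. Clean cells were chosen by low counts of macrophage genes, Lyz2 among them, and that choice removes such differences. The result therefore does not show how much macrophage RNA was left. Values from clean cells are given beside some of the genes named below and not beside others, Tgfb1 and Ccr2 among them. The part of macrophage RNA in the other results was not tested.

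Cytotoxic effector genes differed in both directions. Of 15 cytotoxicity genes tested, 7 rose and 1 fell (median log2 0.46). Gzma, which encodes granzyme A, a serine protease of lytic granules, was the most abundant of them, at 9878, 5915, 7751 and 10669 CPM in NK cells, against 471, 453, 1232 and 679 CPM in CD8 T cells. Every NK sample was above every CD8 sample, and Gzma rose by 3.73 ± 0.23 (adjusted p = 1.8e-07). After each cell was thinned to 2000 UMIs, a Gzma UMI was seen in 93.2% of NK cells, 24.6% of CD8 T cells and 0.682% of endothelial cells, whose median depths were 4310, 5493.5 and 5761 UMIs before thinning. Endothelial cells, which should lack the gene, set the background. Prf1, which encodes the pore-forming protein perforin, stood at 868, 576, 800.3 and 958 CPM in NK cells, against 145, 159, 101 and 440.3 CPM in CD8 T cells. The groups did not overlap, and Prf1 rose by 2.11 ± 0.25 (adjusted p = 7.9e-05).

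Gzmc, a granzyme found in strongly activated mouse killer cells, stood at 213, 758, 65.4 and 425 CPM in NK cells, against 1.78, 1.92, 0 and 2.45 CPM in CD8 T cells. The groups did not overlap, and it rose by 7.66 ± 0.31 (adjusted p = 5.4e-09). After thinning it was seen in 9.28% of NK cells, 0% (0 of 345, exact 95% limit 1.06%) of CD8 T cells and 0% (0 of 440, exact 95% limit 0.835%) of endothelial cells, so most NK cells held no Gzmc UMI at this depth. Over the 6 samples it ranged widely, at 35.3, 171 and 758 CPM. Gzmb, the caspase-cleaving granzyme, stood at 2528, 1381, 1978 and 2945 CPM in NK cells, against 1016, 1123, 911 and 1791 CPM in CD8 T cells. The groups overlapped, and Gzmb rose by 0.92 ± 0.16 (adjusted p = 0.0015). Serpinb9, an inhibitor of granzyme B that protects killer cells from their own granules, rose by 2.10 ± 0.20 (adjusted p = 1.3e-05). Gzmk, a granzyme of memory-like CD8 T cells, fell by 4.70 on the log2 scale (adjusted p = 4.1e-08).

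The promoters of the 3 granzymes that rose are shown because these effector genes rose against CD8 T cells, and because Gzmc parts from the others between NK cells, as described further on. They are RefSeq sequences on build GRCm38.p6, 250 bases before to 50 after the start that the RefSeq table gives, on the minus strand. For Gzmc that start lies inside the annotated gene (positions 56231397 to 56241647) and not at its outer end. Capitals mark matches on either strand to TGTGGT (a core motif of RUNX factors, ACCACA on the other strand) and AGGTGT (a core motif of T-box factors such as Eomes and T-bet, ACACCT on the other strand), 2 motifs that do not overlap each other here.
Gzma chr13:113100932-113101231: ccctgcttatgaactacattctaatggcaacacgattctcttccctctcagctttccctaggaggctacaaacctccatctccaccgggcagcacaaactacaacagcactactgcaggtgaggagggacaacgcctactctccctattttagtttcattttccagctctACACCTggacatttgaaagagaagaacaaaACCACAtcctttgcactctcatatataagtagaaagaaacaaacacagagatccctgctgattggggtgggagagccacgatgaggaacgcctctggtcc
Gzmb chr14:56262285-56262584: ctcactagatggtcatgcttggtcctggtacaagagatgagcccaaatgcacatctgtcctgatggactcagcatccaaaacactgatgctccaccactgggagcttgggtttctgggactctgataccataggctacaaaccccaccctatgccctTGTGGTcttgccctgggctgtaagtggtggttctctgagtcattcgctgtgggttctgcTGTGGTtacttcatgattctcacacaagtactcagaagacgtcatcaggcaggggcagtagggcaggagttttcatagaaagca
Gzmc chr14:56234608-56234907: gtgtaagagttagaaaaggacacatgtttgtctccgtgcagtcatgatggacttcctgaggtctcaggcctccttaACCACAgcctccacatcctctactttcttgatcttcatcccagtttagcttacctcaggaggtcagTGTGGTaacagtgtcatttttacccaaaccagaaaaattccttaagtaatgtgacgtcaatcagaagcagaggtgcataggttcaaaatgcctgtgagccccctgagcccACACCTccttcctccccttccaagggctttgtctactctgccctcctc
Gzma held 1 RUNX and 1 T-box match, Gzmb held 2 RUNX and 0 T-box matches, and Gzmc held 2 RUNX matches and 1 T-box match. Of 32851 promoter windows of this length over 27025 genes, 16.8% held the RUNX letters and 13.7% the T-box letters. A match is a description of the letters and not a binding site.

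Of 14 transcription factors tested, 5 rose and 2 fell (median log2 0.43). Eomes, which NK cells need to mature and which type 1 innate lymphoid cells of tissues lack, stood at 296, 171, 208 and 257 CPM in NK cells, against 49.98, 113, 69.1 and 31.8 CPM in CD8 T cells. The groups did not overlap, and it rose by 2.02 ± 0.30 (adjusted p = 0.00046). Tbx21, which encodes the related factor T-bet, rose by 1.34 ± 0.25 (adjusted p = 0.0027). Irf8, listed with the maturation genes and needed for NK expansion in mice, stood at 1189, 1013, 1283 and 1448 CPM in NK cells, against 129, 76.8, 56.6 and 181 CPM in CD8 T cells, without overlap, and rose by 3.55 ± 0.22 (adjusted p = 1.5e-07, 4.08 in clean cells). Dendritic cells and macrophages also express Irf8, and of the 8 dendritic cell markers 2, Irf8 among them, had a median of at least 10 CPM in NK cells. Tox, a factor of T cell exhaustion that is also needed in NK development, fell by 2.01 on the log2 scale (adjusted p = 0.00024). Ikzf2, which encodes Helios, changed by -0.85 ± 0.22 (adjusted p = 0.023), but not past the threshold without sample 7 (-0.58, adjusted p = 0.14), without sample 8 (-0.94, adjusted p = 0.059) or in clean cells (-0.67, adjusted p = 0.12).

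Of 16 activating receptor and adaptor genes tested, 9 rose and 2 fell (median log2 1.44). Fcer1g stood at 2712, 2103, 2803 and 3076 CPM in NK cells, against 407, 873, 603 and 438 CPM in CD8 T cells, without overlap, and rose by 2.31 ± 0.21 (adjusted p = 8.7e-06), or by 5.84 in clean cells. Tyrobp rose by 2.81 ± 0.21, and by 6.31 in clean cells. Fcgr3, which encodes the antibody receptor CD16 and is abundant in macrophages, had a fold change of 0.28 ± 0.37 (adjusted p = 0.72), of -0.23 without sample 8 and of 4.65 (adjusted p = 6.3e-05) in clean cells, so its call depends on which cells enter. Klrk1, which encodes NKG2D, rose by 1.73 ± 0.21 and Klrd1 by 1.41 ± 0.23 (adjusted p = 0.00011 and 0.0011). Cd226, which encodes the adhesion receptor DNAM-1, fell by 1.95 on the log2 scale (adjusted p = 3.6e-05). Cd247, the zeta chain shared by CD16 and the T cell receptor, changed by -0.90 ± 0.21 (adjusted p = 0.013), with a value of -0.85 without sample 7 (adjusted p = 0.068). Ly49 genes are relatives of rule genes and are only described: Klra8, which encodes Ly49H, and Klrb1a had no UMI in CD8 T cells and were at least 321-fold and 108-fold higher in NK cells, against a floor of 3 counts over the 4 CD8 samples together.

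Cytokine genes were mostly lower in NK cells. Of 9 tested, 1 rose and 5 fell (median log2 -1.40), and without sample 5, where 7 could be tested, 1 rose and 2 fell. Ifng, which encodes interferon gamma, the main NK cytokine, stood at 126, 51.9, 137 and 169 CPM in NK cells, against 1414, 119, 214 and 218 CPM in CD8 T cells. CD8 T cells of sample 5 stood far above the other samples, and the groups overlapped. Ifng changed by -1.47 ± 0.44 (adjusted p = 0.043), with values of -0.59 without sample 5 (adjusted p = 0.11) and -1.79 without sample 7 (adjusted p = 0.062), so the call depends on samples 5 and 7. After thinning, an Ifng UMI was seen in 21.0% of NK cells, 17.1% of CD8 T cells and 0% (0 of 440, exact 95% limit 0.835%) of endothelial cells. Tnf changed by -2.12 ± 0.40 (adjusted p = 0.0031) and Ltb, a lymphotoxin subunit of lymphoid signalling, by -1.40 ± 0.17 (adjusted p = 0.00013, -1.42 in clean cells). Il10 fell by 4.52 and Areg, a growth factor, by 3.40 on the log2 scale. Macrophages also express Tnf and Il10, and neither passed the filter on low counts in clean cells, where Areg stood at -2.38 (adjusted p = 0.030) and 3 of the 6 cytokine genes tested fell (median log2 -0.78). Tgfb1, the gene of the suppressive cytokine TGF-beta 1, was the exception and rose: it stood at 308, 291, 383 and 361 CPM in NK cells, against 146, 142, 135 and 179.8 CPM in CD8 T cells, with no overlap (log2 fold change 1.19 ± 0.15, adjusted p = 0.00018). Il2 and Il22 had no UMI in NK cells.

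Chemokine transcripts were abundant in NK cells, and none was called higher than in CD8 T cells. Of 8 tested, 3 fell (Cxcl2, Ccl2 and Ccl3, median log2 -1.66), and in clean cells 3 of 6 fell (Ccl3, Ccl4 and Ccl5, median log2 -0.73), where Ccl2 was too scarce to be tested. Ccl5, which attracts T cells and myeloid cells, stood at 7154, 4871, 6837 and 9953 CPM in NK cells, against 9676, 27366, 14121 and 8469.8 CPM in CD8 T cells. The groups overlapped, and its fold change of -0.86 ± 0.30 did not pass (adjusted p = 0.084), but did without sample 5 (-1.05, adjusted p = 0.017), without sample 8 (-1.26, adjusted p = 0.021) and in clean cells (-1.04, adjusted p = 0.0089). Ccl4 had a fold change of -0.71 ± 0.30 (adjusted p = 0.16) and did not pass, but did in clean cells (-1.01, adjusted p = 0.039) and with no filter on low counts (-0.73, adjusted p = 6.3e-06). Ccl3, its close relative, changed by -1.78 ± 0.38 (adjusted p = 0.0073, -2.22 in clean cells). Cxcl2, a neutrophil attractant that macrophages make, changed by -3.22 ± 0.36, with a value of -0.46 in clean cells that did not pass (adjusted p = 0.44). Xcl1, a rule gene, stood at 1114, 1414 and 2308 CPM over the 6 samples and has no test here.

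Checkpoint genes differed in both directions. Of 17 inhibitory receptor and checkpoint genes tested, 2 rose and 5 fell in NK cells (median log2 -0.30). Pdcd1, which encodes PD-1, the receptor of the PD-L1 protein that the treatment antibody binds, stood at 2.38, 0, 3.85 and 7.98 CPM in NK cells, against 169.6, 357, 270.3 and 236 CPM in CD8 T cells. It was near 0 in every NK sample, with 9 UMIs over all NK cells, and the groups were far apart (log2 fold change -5.70 ± 0.31, adjusted p = 5.2e-08). After thinning, a Pdcd1 UMI was seen in 0.206% of NK cells, 38.3% of CD8 T cells and 0% (0 of 440, exact 95% limit 0.835%) of endothelial cells. Havcr2 (TIM-3) fell by 3.50, Lag3 by 2.39, Ctla4 by 2.25 and Vsir, which encodes VISTA, by 1.46 on the log2 scale (adjusted p = 6.3e-06, 0.00057, 2.4e-06 and 0.00065). In clean cells Havcr2 stood at -5.35, Lag3 at -2.81, Ctla4 at -2.24 and Vsir at -1.68, and all of these passed. Lag3 stood at 22.6, 26.0, 34.6 and 9.58 CPM in NK cells, against 85.7, 136, 81.7 and 202 CPM in CD8 T cells, with no overlap.

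The pair that rose in NK cells were Adora2a and Pdcd1lg2. Adora2a, which encodes the receptor through which extracellular adenosine restrains lymphocytes, stood at 80.8, 72.7, 42.3 and 71.8 CPM in NK cells, against 28.6, 19.2, 28.3 and 17.1 CPM in CD8 T cells, without overlap, and rose by 1.61 ± 0.27 (adjusted p = 0.0013). Pdcd1lg2, which encodes the PD-1 ligand PD-L2, rose by 1.57 ± 0.32 (adjusted p = 0.0050), and stood at 65.3, 57.1, 51.9 and 38.3 CPM in NK cells, against 14.3, 11.5, 18.9 and 24.5 CPM in CD8 T cells, without overlap. Other inhibitory receptors and ligands of NK cells are given as levels. Klrc1, which encodes NKG2A, the receptor for the class I molecule Qa-1, stood at 100.03, 132 and 212 CPM and was seen in 18.6% of NK cells, 16.2% of CD8 T cells and 0% (0 of 440, exact 95% limit 0.835%) of endothelial cells after thinning. Cd274, which encodes PD-L1, stood at 28.2, 67.4 and 90.4 CPM, and its thinned share of 11.5% in NK cells compares with 5.68% of endothelial cells, which also express the gene. Tigit, with 25 UMIs, Klrg1, with 60 UMIs, and Cd96 were scarce, at medians of 11.0, 23.1 and 46.5 CPM.

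Of 8 costimulatory receptors, 1 rose and 4 fell (median log2 -1.09). Cd28 and Icos, costimulators of T cells, fell by 1.66 and 2.28, and Tnfrsf4, which encodes OX40, fell by 4.71 on the log2 scale (adjusted p = 2.4e-05, 2.3e-05 and 8.2e-05). Tnfrsf9, which encodes 4-1BB, changed by 1.01 ± 0.28 (adjusted p = 0.033), and did not pass without sample 7 (0.98, adjusted p = 0.13). Among 17 cytokine receptor and signalling genes, 5 rose and 2 fell (median log2 0.24). Il2rb, the beta chain that NK cells use to sense IL-15, stood at 1055, 873, 1095 and 1133 CPM in NK cells, against 262, 368, 311 and 469.7 CPM in CD8 T cells, without overlap, and rose by 1.63 ± 0.16. Il12rb2 and Il18rap, receptor chains for the interferon gamma inducers IL-12 and IL-18, rose by 1.74 ± 0.28 and 1.17 ± 0.21 (adjusted p = 1.6e-05, 0.00089 and 0.0024). Il7r, the IL-7 receptor of naive and memory T cells, fell by 2.61 (adjusted p = 6.8e-05).

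Migration receptors split by type. Of 12 tested, 3 rose and 6 fell (median log2 -0.75). Ccr2, a receptor for the monocyte attractant Ccl2, stood at 324, 218, 392 and 396 CPM in NK cells, against 91.0, 127, 192 and 148 CPM in CD8 T cells, without overlap, and rose by 1.34 ± 0.18 (adjusted p = 0.00020). Cxcr6, a receptor of lymphocytes that stay in tissues, stood at 7.13, 10.4, 7.69 and 11.2 CPM in NK cells, against 209, 177, 229 and 416 CPM in CD8 T cells, and fell by 4.86 on the log2 scale (adjusted p = 2.9e-08) with no overlap. Cxcr3, the receptor for the interferon-induced chemokine Cxcl10, fell by 1.91 and S1pr1, which guides exit from lymphoid tissue, by 1.99 (adjusted p = 4.2e-05 and 0.0016). Of 10 genes of type 1 innate lymphoid cells and tissue residence, 0 rose and 5 fell (Cxcr6, Il7r, Inpp4b, Gpr183 and Rora, median log2 -0.74), and Zfp683, which encodes the residence factor Hobit, had no UMI in NK cells.

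Maturation genes did not move one way against CD8 T cells. Of 13 mature NK genes 4 rose (Irf8, Cma1, Gzma and Itga2) and 2 fell, and of 12 immature NK genes 3 rose and 4 fell (median log2 0.12 and -0.17). Cma1, a mast cell chymase gene also found in mature NK cells, had no UMI in CD8 T cells and was at least 34.2-fold higher. Ly6c2 fell by 2.65 on the log2 scale (adjusted p = 4.2e-05, -2.50 in clean cells). Kit, which encodes the stem cell factor receptor, rose by 3.90 ± 0.53 (adjusted p = 0.00026).

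Interferon-stimulated genes were lower in NK cells. Of 16 tested, 0 rose and 11 fell (median log2 -0.89), and 8 fell in clean cells, 8 without sample 8, and 6 when samples with at least 10 cells of each gate were used. Isg15, a ubiquitin-like protein, changed by -1.13 ± 0.18, and Ifit1, which blocks viral RNA translation, by -2.04 ± 0.30 (adjusted p = 0.00089 and 0.00039). With at least 10 cells per gate, which adds sample 3, Isg15 had a value of -0.75 (adjusted p = 0.11).

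Cycling cells were few. Of 12 cell cycle genes tested, 0 rose and 4 fell (median log2 -0.94), but this count was 11 without sample 6, 1 without sample 7, 1 without sample 8 and 9 in clean cells. Mki67, the proliferation marker Ki-67, changed by -1.32 ± 0.37 (adjusted p = 0.032), with values of -0.64 without sample 8 (adjusted p = 0.28) and -1.30 without sample 7 (adjusted p = 0.16). After thinning, UMIs of at least 4 of the 12 genes were seen in 9 of 485 NK cells (1.86%), 21 of 345 CD8 T cells (6.09%) and 2 of 440 endothelial cells (0.455%), and without thinning in 5.77, 16.5 and 5.45%. Sample 8 held 12 of the 21 CD8 T cells. The thinning left out 7 NK cells, 3 CD8 T cells and 19 endothelial cells.

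Outside the lists, the genes with the largest rises among those with at least 20 CPM were led by Klrb1a and Khdc1a (log2 7.02). Others were Serpinb9b (6.28), a granzyme inhibitor relative, Clnk (5.53), an adaptor of immune receptor signalling, the kinase-like gene Styk1 (5.01), Vegfa (4.83), an angiogenic growth factor, and Trdc (2.13), a gamma-delta T cell receptor constant gene that NK cells transcribe unrearranged. Vegfa stood at 203, 125, 165 and 164 CPM in NK cells, against 3.57, 11.5, 0 and 6.12 CPM in CD8 T cells, with no overlap (adjusted p = 8.7e-07). The largest falls were in Gm8369 (-7.40), Bcl11b (-6.01), a factor of T cell commitment, Adam19 (-5.48) and Dpp4 (-5.11), which encodes CD26.

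**Figure D2:**
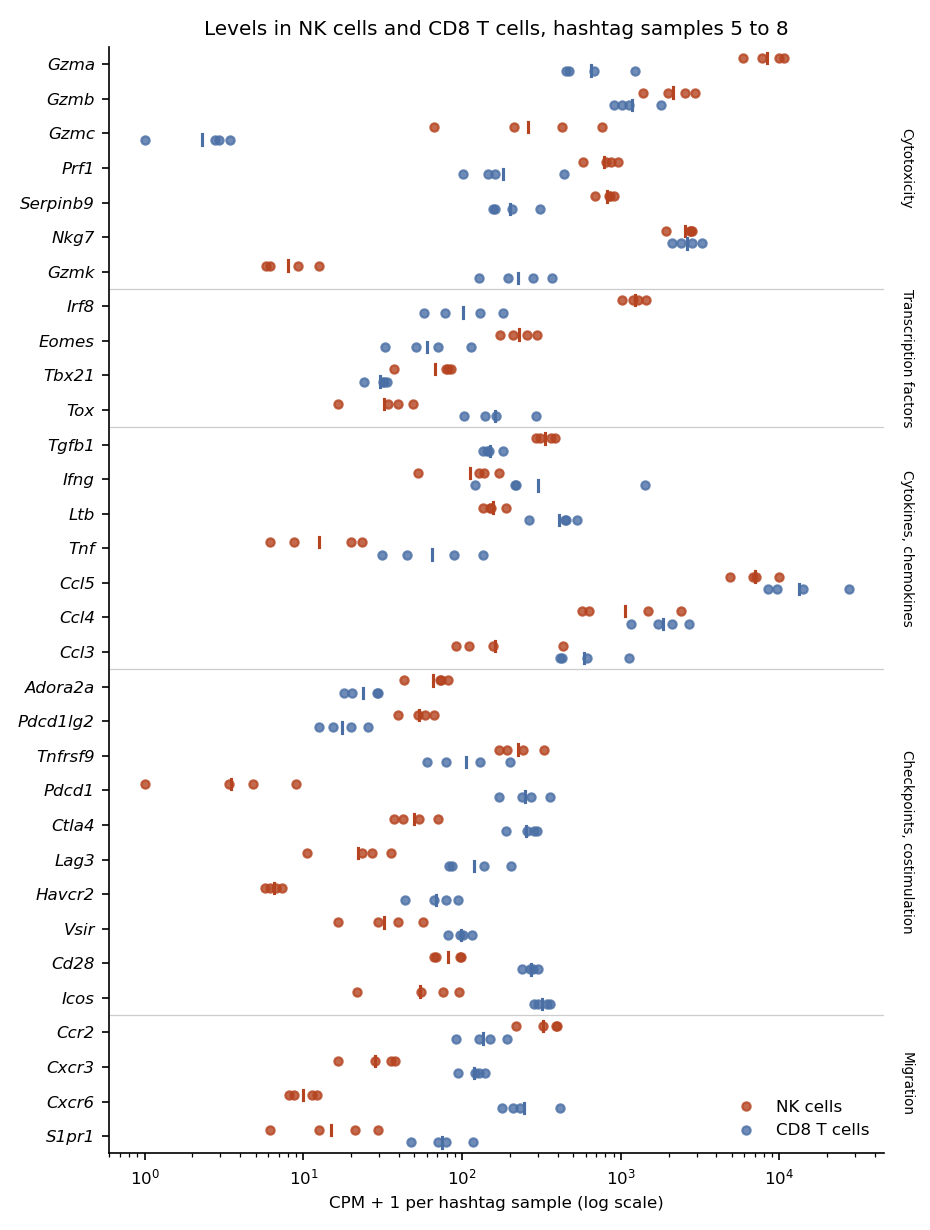
Transcript levels in NK cells (upper row of each gene) and CD8 T cells (lower row) as CPM + 1 on a log axis, 1 point per hashtag sample (5, 6, 7 and 8), with a vertical tick at the geometric mean and genes grouped by role. NK points lie right of CD8 points for Gzma, Prf1, Irf8, Adora2a and Ccr2, and left of them for Pdcd1, Lag3, Havcr2, Cxcr6 and Gzmk.

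Antibody tags gave a readout that the rule did not use. Of 29 tags tested between NK and CD8 T cells on summed tag counts, 6 were higher and 5 lower in NK cells (37.9% called, 20.7% higher and 17.2% lower), tags of CD3, CD4 and CD8 being a check of the gates. NK1.1, counted among the 6, is the product of the rule gene Klrb1c, which had no UMI in the CD8 T cells of these samples. Both gates were thus chosen in part on its transcript, and NK1.1 is a check of the gates as well. NK1.1 had medians of 107, 130.0, 57 and 34 tags per NK cell in samples 5 to 8, against 36, 39, 11 and 7 per CD8 T cell. These medians overlapped across samples, and in each sample the NK median was above the CD8 median. Overlap of single cells was not examined, and the highest CD8 T cell held 187 NK1.1 tags. Medians were 39, 40, 12 and 9 per macrophage and 6 to 10 per endothelial cell. Macrophages were thus above CD8 T cells in each of these samples and, like NK and CD8 T cells, lower in samples 7 and 8. On summed counts NK1.1 was higher by 2.33 ± 0.21 on the log2 scale, a direction that the gates favoured, so no p-value is given. With 4 samples the exact two-sided sign-flip test gives no tag a p under 0.125, or under 0.222 after adjustment. CD3 had medians of 14, 5, 4 and 4 tags per NK cell and 34.5, 44, 15 and 30 per CD8 T cell, and CD8a had 1 to 2 in NK cells and 55 to 110.5 in CD8 T cells, as gate checks.

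Surface CD11b, an integrin of mature NK cells and of myeloid cells, had medians of 28, 24, 24 and 32 tags per NK cell and 7, 7, 6 and 10 per CD8 T cell, without overlap, against 258 to 383.5 per macrophage and 4.5 to 6 per endothelial cell. On summed counts the difference of 0.37 ± 0.27 did not pass (adjusted p = 0.30), and CD8 T cells averaged 32.2 to 57.8 CD11b tags per cell, far above their medians. It was 2.20 in clean cells (adjusted p = 0.00020). CD11c, an integrin of dendritic cells that mouse NK cells also carry, was higher by 1.12 ± 0.21, and CD45R-B220, found on B cells and activated NK cells, by 2.14 ± 0.20 (adjusted p = 0.0045 and 0.00012). CD45R-B220 counts were low, with medians of 8, 6, 4 and 3 tags per NK cell and 3, 2, 2 and 2 per CD8 T cell in samples 5 to 8. Macrophages had CD45R-B220 medians of 4, 2, 2 and 2 and endothelial cells 3, 3, 2 and 2. CD117-c-kit was higher by 1.44 ± 0.15 (adjusted p = 0.00022), with its transcript Kit also higher, but its counts were low. Medians in samples 5 to 8 were 2, 2, 2 and 1 tags per NK cell and 1, 2, 1 and 1 per CD8 T cell. Macrophages had 2, 3, 2 and 2 and endothelial cells 2, 2, 3 and 2, so NK medians were not above those of either gate.

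The checkpoint tags followed their transcripts for PD-1. PD-1 had medians of 4, 1, 1 and 1 tags per NK cell, against 14, 18, 5 and 9 per CD8 T cell, without overlap (log2 fold change -2.30 ± 0.28, adjusted p = 0.00039). CD86, a ligand of CD28 and CTLA-4, had medians of 2, 7, 3 and 2 tags, against 19.5, 35, 16 and 39, without overlap (log2 fold change -2.58 ± 0.37, adjusted p = 0.0011). PD-L1 averaged 12.5, 9.11, 1.64 and 3.54 tags per NK cell, against 8.34, 5.18, 1.68 and 4.06 per CD8 T cell, so the means were higher in NK cells of samples 5 and 6 and lower in samples 7 and 8. Its edgeR difference of 0.79 ± 0.23 (adjusted p = 0.034), which scales to all tags, ended without sample 5 (0.86, adjusted p = 0.11), without sample 6 (0.59, adjusted p = 0.079) and without sample 8 (0.97, adjusted p = 0.051). Endothelial cells of samples 5 to 8 had PD-L1 medians of 10, 3, 1 and 1, so samples 7 and 8 were low in that gate as well.

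The other tag calls were less stable. CD103, a residence integrin (-1.18 ± 0.38), and I-A-I-E, MHC class II (-0.78 ± 0.25), were lower, and Ly6G, a neutrophil protein (0.47 ± 0.16), was higher, with adjusted p of 0.042, 0.042 and 0.046. Without sample 8 these stood at -0.90, -0.65 and 0.47, with adjusted p of 0.24, 0.16 and 0.16. Ly6G medians in samples 5 to 8 were 2, 1, 2 and 1 tags per NK cell, 2, 2, 2 and 1 per CD8 T cell and 2 to 3 per endothelial cell. The highest NK cell held 205 Ly6G tags. CD103 medians were 0 to 1 per NK cell and 1 per CD8 T cell and per endothelial cell, and the highest NK and CD8 T cells held 240 and 286. CD172a-SIRPa, a myeloid receptor, changed by -0.66 ± 0.18 (adjusted p = 0.030), with a value of 0.19 in clean cells, where its sign turned. CD49d, an integrin that carries lymphocytes into the inflamed brain, was not called. Its medians in samples 5 to 8 were 11, 9, 9 and 12 tags per NK cell, against 14.5, 20, 14 and 18.5 per CD8 T cell. On summed counts its difference of -0.30 ± 0.19 did not pass edgeR's test (adjusted p = 0.23), and 1 of 4 samples went the other way.

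**Figure D3:**
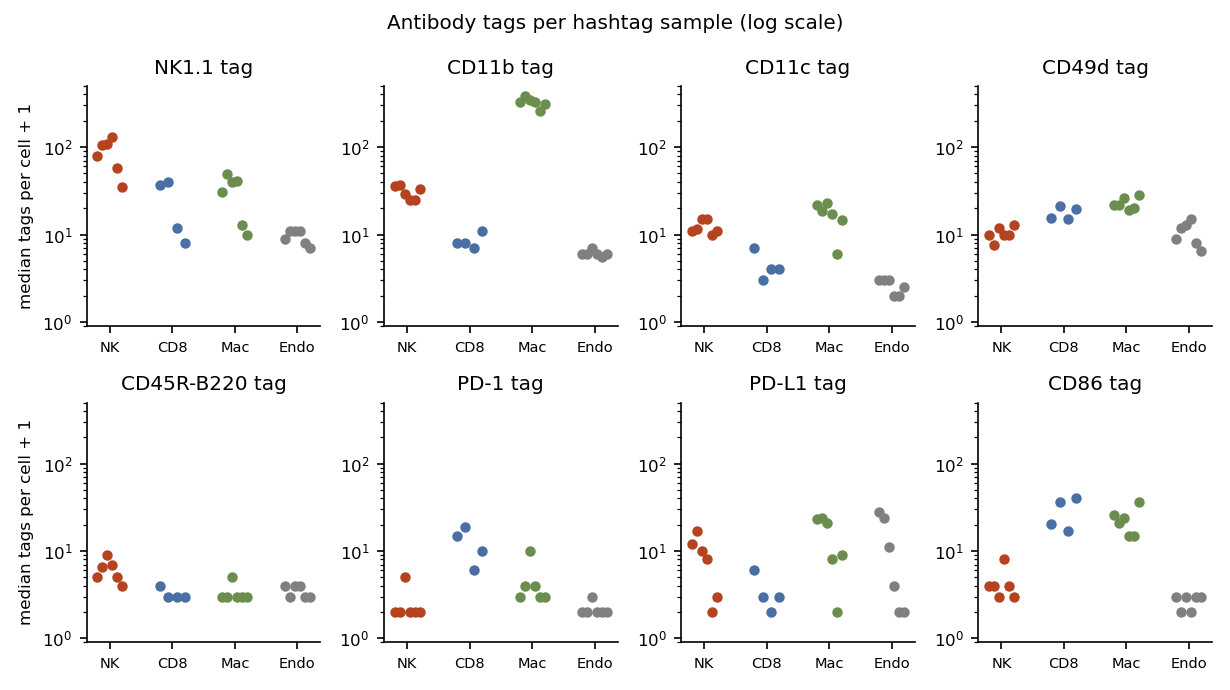
Median antibody tags per cell plus 1 (log axis) for 8 antibodies in NK cells, CD8 T cells, the macrophage gate and the endothelial gate, 1 point per hashtag sample. NK cells were above CD8 T cells of every shared sample for NK1.1 and CD11b and below them for PD-1 and CD86. Macrophages stood far above both for CD11b.

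NK maturation was examined by splitting the NK cells of each sample at the median share of CD11b among a cell's antibody tags, which gave CD11b tag-high and tag-low cells in 6 samples (23, 13, 84, 13, 45 and 61 cells each of samples 2, 3, 5, 6, 7 and 8). Tag-high cells carried more Ccl3, Ccl4, Ccl5, Gzma and Gzmb transcript and less Gzmc, 7 of 10 genes of mature NK cells were higher in them, and 6 of 10 genes of immature NK cells were lower. Median CD11b tags per cell were 43, 55.2 and 68 in tag-high cells and 11, 14 and 19 in tag-low cells, and these chose the sides. Itgam, the transcript of CD11b, was higher by 1.59 ± 0.30 as a check. NK1.1 tags were 31, 79.5 and 122, against 38, 97 and 142, and CD44 tags 33 (32 to 38), against 44 (39 to 68). CD49d tags, the product of Itga4, ran the other way, at 8, 11.5 and 16 in tag-high cells, against 4, 8.50 and 11 in tag-low cells, and were higher in tag-high cells in 5 of 6 samples. Every tag is part of the sum that the CD11b share divides by, so these tag counts were not tested. Median UMIs per cell were 3848.5 in tag-high and 5385 in tag-low cells, lower in tag-high cells in 6 of 6 samples.

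Of 3366 genes tested in the same way, 244 passed (7.25%), with 121 higher (3.59%) and 123 lower (3.65%) in tag-high cells and a median log2 fold change of -0.01. The sides did not overlap for 49 genes (1.46%). Fold changes are tag-high over tag-low on the log2 scale ± SE (n = 6 samples). The macrophage marker sum was 805 CPM (159 to 2767) in tag-high and 153 CPM (100.04 to 266) in tag-low cells, and 8 of 9 macrophage markers were higher in tag-high cells. C1qa and Lyz2 were higher by 2.35 and 2.95, and Lyz2 by 0.67 (adjusted p = 0.61) among clean cells. Low Lyz2 counts were part of the choice of clean cells, so the lower value follows from that choice. Among clean cells 50 genes were higher (2.15%) and 96 lower (4.13%) of 2327. Of the genes that passed and could be tested there, 45 of 83 higher and 88 of 114 lower genes passed again. Genes with symbols starting Rpl or Rps, picked after their values were seen, made up 68 of the 123 lower genes. Among clean cells they made up 61 of the 96 lower genes. Clean values are given beside some of the genes below, and the part of macrophage RNA in the other higher genes was not tested.

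Of 10 mature NK genes tested, 7 rose and 0 fell (median log2 0.85), and in clean cells 7 of 9 rose. The median over all genes was -0.01. Without sample 8, 4 of 9 rose. Zeb2, a factor that drives terminal NK maturation, stood at 188, 214 and 262 CPM in CD11b tag-high cells, against 26.2, 77.2 and 136 CPM in tag-low cells, without overlap, and rose by 1.38 ± 0.19 (adjusted p = 5.5e-05, 1.11 in clean cells). Cma1 rose by 2.38 ± 0.41 and Ly6c2, a Ly6C gene, by 1.69 ± 0.27 (adjusted p = 0.00046 and 0.00024). The integrin genes Itga4 and Itgb2 changed by 0.73 ± 0.15 and 0.70 ± 0.16, and Irf8 by 0.48 ± 0.12 (adjusted p = 0.0035, 0.0081 and 0.015). Itgb2, Irf8 and Cma1 did not pass without sample 8 (0.57, 0.46 and 2.19), nor Irf8 without sample 2 (0.39). Klf2, outside the list, which keeps lymphocytes in circulation, rose by 1.24 ± 0.18 (adjusted p = 0.00010, 1.20 in clean cells).

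Of 10 immature NK genes tested, 0 rose and 6 fell (median log2 -0.81), and in clean cells 4 of 9 fell. Without sample 8, 3 of 9 fell. Cd27, whose product marks early NK cells, stood at 27.2, 57.7 and 109 CPM in CD11b tag-high cells, against 113, 143 and 170.1 CPM in tag-low cells, without overlap, and changed by -0.99 ± 0.20 (adjusted p = 0.0026, -0.77 in clean cells). Ltb stood at 0, 43.6 and 86.1 CPM in CD11b tag-high cells, against 125, 200.1 and 262 CPM in tag-low cells, also without overlap, and changed by -1.94 ± 0.23 (adjusted p = 6.6e-06). Emb, which encodes the adhesion protein embigin, changed by -1.40 ± 0.18 (adjusted p = 2.9e-05) and Kit by -1.66 ± 0.44 (adjusted p = 0.021). Thy1 (-0.75 ± 0.22) and Ctla2a (-0.47 ± 0.12) passed with adjusted p of 0.039 and 0.015, but not in clean cells (-0.73 and -0.30), and not without sample 5 or 8 (-0.47 and -0.45 without sample 8). Thy1 did not pass without sample 3 or 6 either (-0.76 and -0.70).

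Of 4 genes of type 1 innate lymphoid cells and tissue residence, 2 fell and 0 rose, and in clean cells 1 of 2 fell. Rora, a nuclear receptor of innate lymphoid cells, changed by -2.82 ± 0.40 and Itga1, which encodes CD49a, by -1.88 ± 0.46 (adjusted p = 7.7e-05 and 0.011), and Itga1 did not pass by DESeq2 (-1.82, adjusted p = 0.096). Of 14 transcription factors 1 rose and 1 fell. Ikzf2 stood at 0, 13.6 and 79.6 CPM in CD11b tag-high cells, against 48.3, 87.2 and 170.1 CPM in tag-low cells, with overlap, and changed by -2.41 ± 0.39 (adjusted p = 0.00027, -3.07 in clean cells). Id2, which NK development needs, rose by 0.49 ± 0.11 (adjusted p = 0.0052). Eomes (0.15 ± 0.16) and Tbx21 (-0.22 ± 0.22) did not pass (adjusted p = 0.78 and 0.75).

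Chemokines of the Ccl family were higher in CD11b tag-high cells. Ccl5 stood at 7122, 10197 and 15277 CPM in CD11b tag-high cells, against 1746, 4024 and 6378 CPM in tag-low cells. The sides did not overlap, and Ccl5 rose by 1.43 ± 0.13 (adjusted p = 1.6e-07, 1.51 in clean cells). Ccl4 stood at 947, 4182 and 5194 CPM in CD11b tag-high cells, against 223, 511 and 2177 CPM in tag-low cells, and rose by 2.12 ± 0.21 (adjusted p = 3.6e-07). Ccl3 stood at 153, 508 and 1343 CPM in CD11b tag-high cells, against 42.5, 78.0 and 209.5 CPM in tag-low cells, and rose by 2.45 ± 0.21 (adjusted p = 5.8e-08). For both, the ranges overlapped between samples. In clean cells Ccl4 and Ccl3 rose by 2.06 and 2.42. Of 7 chemokines tested 5 rose, the others being Cxcl2 and Ccl2, which macrophages make. In clean cells 5 were tested, of which Ccl3, Ccl4 and Ccl5 rose and Cxcl10 and Xcl1 fell. Xcl1, counted among the 7 and the 5, is a rule gene. It was not used for the CD11b split, but it helped choose the cells of both sides. The Xcl1 fold changes of -0.31 ± 0.22 over all NK cells, -0.55 in clean cells and -0.68 without sample 6 are therefore only described. Ifng did not pass (0.43 ± 0.24, adjusted p = 0.40).

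Granzymes parted. Of 12 cytotoxicity genes tested, 4 rose and 1 fell (median log2 0.40). Gzma stood at 6717, 12883 and 32208 CPM in CD11b tag-high cells, against 5102, 6896 and 8323 CPM in tag-low cells, and rose by 0.98 ± 0.14 (adjusted p = 6.4e-05, 1.24 in clean cells). Gzmb stood at 2069, 3198 and 11484 CPM in CD11b tag-high cells, against 1186, 1824 and 3731 CPM in tag-low cells, and rose by 0.96 ± 0.12 (adjusted p = 9.2e-06). The ranges of both overlapped. Gzmc went the other way, at 0, 78.0 and 271 CPM in CD11b tag-high cells, against 56.7, 264 and 1125 CPM in tag-low cells. It was lower in tag-high cells in 5 of 6 samples and changed by -1.96 ± 0.29 (adjusted p = 0.00012, -2.55 in clean cells). With cells split by their CD11b tag count in place of its share, Gzmc had a value of -0.98 (adjusted p = 0.27). Prf1 and Nkg7, a granule membrane protein, rose by 0.65 ± 0.12 and 0.40 ± 0.09 (adjusted p = 0.0013 and 0.0064), with values of 0.52 and 0.22 when split by tag count (adjusted p = 0.068 and 0.16).

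**Figure D4:**
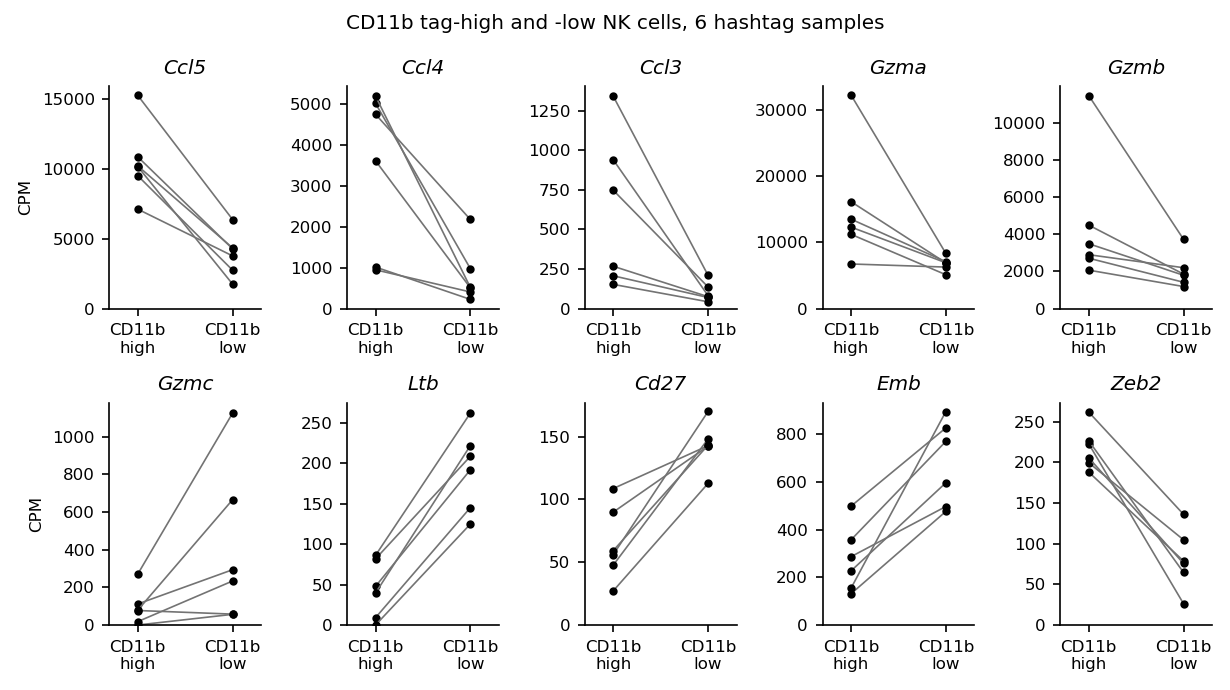
Levels in CPM (linear axis) of 10 genes in CD11b tag-high NK cells (left) and tag-low NK cells (right), with 1 line for each of 6 hashtag samples. Lines fall to the right for Ccl5, Ccl4 and Ccl3 and rise to the right for Ltb, and Gzmc runs against Gzma and Gzmb in most samples.

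Receptor genes differed modestly between the sides. Of 17 activating receptor and adaptor genes, 3 rose and 1 fell. The rule genes Ncr1, Klre1 and Klrb1c are among the 17, and the rule gene Klra4 is among the 6 Ly49 genes below. Fcer1g rose by 0.56 ± 0.09 (adjusted p = 0.00022, 0.56 in clean cells). Klrb1c, the NK1.1 gene, is 1 of the 3 that rose. The CD11b split did not use it, but the rule used it to choose the cells of both sides. The Klrb1c fold changes of 0.53 ± 0.12, and of 0.37 when split by tag count, are therefore only described. Tyrobp changed by 0.30 ± 0.09 (adjusted p = 0.038) and did not pass without sample 2, 5, 6, 7 or 8 (0.26 to 0.34). Cd160, a receptor for HVEM and class I molecules, changed by -1.53 ± 0.41 (adjusted p = 0.021), and did not pass when split by tag count (-1.15, adjusted p = 0.13) or by DESeq2 (adjusted p = 0.24). Of 6 Ly49 genes, Klra9 rose by 1.23 ± 0.16 and Klra3 by 0.95 ± 0.26 (adjusted p = 2.9e-05 and 0.025), and Klra3 did not pass without sample 3, 5, 6 or 8 (0.71 without sample 8). Cd28, a costimulatory receptor, changed by -1.05 ± 0.22 (adjusted p = 0.0026), and did not pass in clean cells (-0.78, adjusted p = 0.054) or by DESeq2 (adjusted p = 0.069). None of 9 checkpoint genes, 11 cytokine receptor genes and 6 migration receptors passed edgeR's test, and 4, 5 and 2 of them had an unadjusted p under 0.05. DESeq2 called 0 in each of these lists.

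Cell cycle genes were lower in tag-high cells when cells were split by CD11b share, but not when split by CD11b tag count. Of 8 tested, 0 rose and 5 fell (median log2 -1.47), with Top2a at -1.62 ± 0.28, Mki67 at -2.38 ± 0.58, Pclaf at -2.45 ± 0.55 and Stmn1 at -1.55 ± 0.33 (adjusted p = 0.00051, 0.012, 0.0062 and 0.0033). By tag count edgeR called 0 of 8, and Top2a and Mki67 had values of -0.19 and -0.20 (adjusted p = 0.97 and 0.98). Of 16 interferon-stimulated genes 2 rose, Gbp2 and Isg15, and in clean cells edgeR called 0 of the list and Isg15 had a value of -0.10. Of 8 immediate early and heat shock genes 4 rose, and 2 rose in clean cells. Jun and Egr1 had values of 0.29 and 0.28 in clean cells (adjusted p = 0.58 and 0.86), against 0.84 ± 0.19 and 1.11 ± 0.28 over all NK cells. Without sample 7 or 8, Jun and Egr1 did not pass (Jun 0.59 and 0.78, Egr1 0.65 and 1.02).

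Outside the lists, Alox5ap (3.87), Ms4a6c (3.35) and Marcks (2.99), genes with high levels in macrophages, were among the largest rises, with Icam1, an adhesion ligand (1.60 ± 0.24, 1.36 in clean cells). Among the largest falls were Jaml, an adhesion receptor (-1.76 ± 0.31), and Odc1, the first enzyme of polyamine synthesis (-0.99 ± 0.17, adjusted p = 0.00072 and 0.00039). Spp1, which encodes osteopontin, changed by -0.91 ± 0.26 (adjusted p = 0.028), and did not pass without sample 5 (-0.85) or 7 (-1.03).

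**Figure D5:**
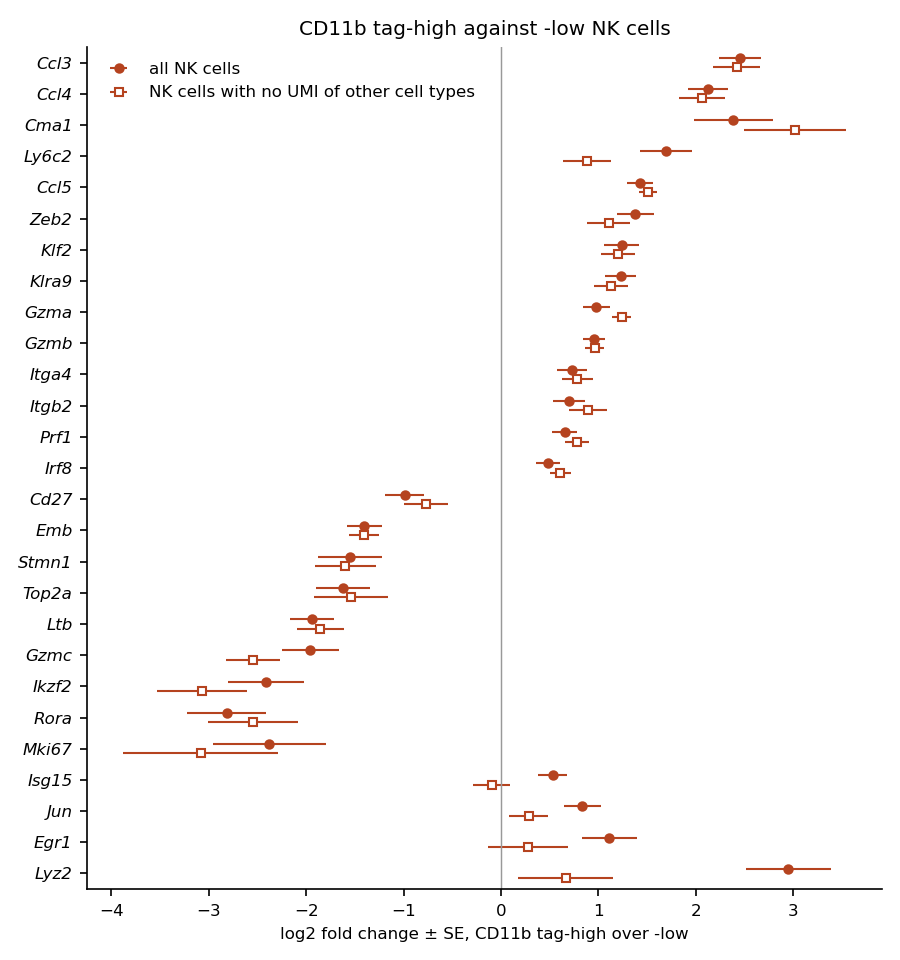
Log2 fold change (x axis, bars are SE) of CD11b tag-high over tag-low NK cells for 27 genes, for all NK cells (filled points) and for clean cells with no UMI of other cell types (open squares). Ccl3, Ccl4 and Ccl5 lie above 0 and Ltb, Cd27, Rora and Ikzf2 below 0 in both sets. Lyz2 lies far lower in clean cells, which were chosen by low Lyz2 counts.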

How the data were processed

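The members, gene lists and tests were chosen with earlier results of these data known. The deposited values are raw UMI counts per gene, antibody tag and hashtag, in 1 matrix of 12908 called barcodes and 31111 features (31062 genes), per the file headers. Cell Ranger 3.1 on mm10 and Seurat 3.1.1 are named in the submitters' processing notes, and no source used here names the gene annotation. No doublet caller was run: the hashtag and UMI limits served instead, and both gates of a comparison used them. Clean cells had no UMI of the macrophage genes C1qa, Csf1r and Ms4a7, the carcinoma genes Krt8 and Krt18 or the B cell gene Cd79a. They had few or no UMIs of Lyz2.

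Counts were summed per hashtag sample and gate, for samples with at least 20 cells (10 on each side of the CD11b split), and tested with edgeR 4.0.16 (quasi-likelihood, TMM, filterByExpr, hashtag sample as a block, Benjamini-Hochberg at 0.05) in R 4.3.3. Tags were also tested by exact sign-flip permutation. The block pairs cells of the same brain sample by design. Their deviations from the gate means correlated at -0.14 to 0.03 over samples 5 to 8 between NK and CD8 T cells, and at -0.01 to 0.08 between the sides of the CD11b split. DESeq2 1.42.0, scaling, filters, cell limits and leaving out single samples were alternatives. Named genes were those of the lists and, outside them, up to 10 per direction with the largest fold change and at least 20 CPM. For shares of cells each cell was thinned to 2000 UMIs (seed 1, Python 3.11.15, numpy 2.4.6).

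On simulated counts, 66% of genes changed by 1 on the log2 scale and 97% of those changed by 2 were recovered for NK against CD8 T cells (6244 genes, 5 false calls), and 92% and 100% for the CD11b split (3126 genes, 5 false calls). Only abundant genes were changed, all genes shared 1 fixed dispersion, and no effect of hashtag sample was simulated. These shares therefore do not cover scarce genes or the real spread. Promoters and positions are from RefSeq on GRCm38.p6. Some genes of the lists are counted in the totals and not reported singly here. Treated and untreated brains were not compared, since no source used here ties hashtags to treatment.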

Additional observations from a re-analysis of the deposited data

Results flagged for a closer look

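Of 59 gene levels and tag medians examined over the 6 hashtag samples with at least 20 NK cells, 9 had a sample standing far from the others, by a gap over 0.625 of the whole range. Chance marks about 1 in 20 such groups. Gzmb was at 6657 CPM in sample 3, against 1381 to 2945 CPM in the other 5 samples, and Isg15 at 939 CPM in sample 3, against 265 to 423 CPM in the other 5 samples. In sample 2, Havcr2 was at 20.7 CPM (others 0 to 6.38 CPM), Tnf at 70.5 CPM (others 5.19 to 22.3 CPM) and Cxcl2 at 822 CPM (others 7.06 to 113 CPM). The macrophage marker sum in NK cells was also highest in sample 2, at 1407 CPM, against 156 to 654 CPM in the other 5 samples, and its part in these values was not tested. Csf2, a growth factor of myeloid cells, was at 20.8 CPM in sample 6, against 0 to 4.79 CPM in the other 5 samples. Samples 3 and 6 rest on 26 and 27 NK cells.

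Among tags, the median PD-1 count was 4 per NK cell in sample 5 and 1 in each other sample, and the median CD3 count was 14 in sample 5, against 3 to 6. Sample 5 was also highest in macrophages, with medians of 9 PD-1 tags (others 2 to 3) and 17 CD3 tags (others 5 to 12), and in endothelial cells, with 2 PD-1 tags (others 1). The median CD86 count was 7 in sample 6, against 2 to 3.

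Human hashtags, which no mouse brain should carry, had counts in NK cells: 184 counts of H-HTO-1 in 113 cells, 235 of H-HTO-2 in 125 cells, 34 of H-HTO-4 in 30 cells and 5 of H-HTO-5 in 5 cells. Over all barcodes these tags had 2517, 4404, 10093 and 1020 counts. H-HTO-3 had 3 counts in NK cells and H-HTO-6 had 0.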

How the results depend on the processing

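Between NK and CD8 T cells 815 genes passed. DESeq2 gave 500, leaving out single samples 536 to 890 (fewest without sample 7, 554 without sample 8), and the fit with no replicate block 839. With library size only, 317 were higher and 498 lower (38.9% higher, against 44.0%). Of 70 named genes 57 kept their call and direction under all alternatives run. Fcgr3 stood between -0.23 (without sample 8) and 0.76 (without sample 6) when single samples were left out, and passed at 2.78 (at most 10000 UMIs), 4.65 (clean cells) and 2.75 (fewer than 100 CD11b tags). Lyz2 stood at 0.62 in clean cells, which were chosen by low Lyz2 counts. Of 29 tags, 11 passed, 7 with no replicate block, 7 with the top hashtag at 90% or more, and 7 to 10 when single samples were left out. CD172a-SIRPa turned to 0.28 at no more than 10000 UMIs, 0.19 in clean cells and 0.11 in cells with fewer than 100 CD11b tags, a limit chosen after seeing the data. Between CD11b tag-high and tag-low cells 244 genes passed. The pairing of both sides by hashtag sample bears on this count, since 72 passed with no replicate block, where Gzmb (1.08), Ly6c2 (1.62) and Itgb2 (0.75) did not pass. DESeq2 gave 153, clean cells 146, and leaving out single samples 112 to 263 (112 without sample 8, 161 without sample 7). Library size only gave 150 higher and 98 lower (60.5% higher, against 49.6%). At most 10000 UMIs gave 70 higher and 119 lower (37.0% higher), and fewer than 100 CD11b tags 53 and 112 (32.1%). A split by CD11b tag count gave 78 higher and 95 lower. Of 59 named genes 28 kept their call and direction under all alternatives run. Those that turned were Hmgb2 (0.15 at most 10000 UMIs, 0.14 by tag count), Isg15 (-0.10 at most 10000 UMIs, -0.10 in clean cells) and Egr1 (-0.16 with fewer than 100 CD11b tags). The causes were not tested. The median NK share was 3.91% with no upper UMI limit and 6.81 to 10.6% without single samples. With 26 and 27 NK cells, samples 3 and 6 limit what scarce genes such as Tigit and Pdcd1 can show.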

Other observations

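Ribosomal protein genes were not in any list and were picked after their values were seen. Of 80 genes with symbols starting Rpl or Rps, 68 were lower and 0 higher in CD11b tag-high than in tag-low NK cells by edgeR's test (median log2 -0.43), and 61 of 79 were lower among clean cells. Median UMIs per cell were 3848.5 in tag-high and 5385 in tag-low cells. Between NK and CD8 T cells 2 of the 80 were higher and 0 lower.

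The transgene mCherry had 1949 UMIs and RFP 718 UMIs over all barcodes, and both had 0 in the 492 NK cells. Another 57 barcodes over 20000 UMIs met the other NK limits, and 12 barcodes met them with a top hashtag under 70%.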
